A study of Mus musculus with 4 samples.

Results

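The genes described here are the machinery of endoplasmic reticulum (ER)-associated degradation (ERAD) other than the Derlins. The list of 41 genes was chosen from knowledge of the pathway, but with earlier results of these data known. A probe belongs to a gene when the RefSeq accession in the array's annotation maps to it. All 41 genes had at least 1 probe kept for testing, out of 16524 named genes with such a probe. They are covered by 64 probes, of which 63 were kept, and the 1 left out, a probe of Rad23b, lacked a usable value on at least 1 of the 4 arrays.

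RNA from the cerebellum of C57BL/6 mice at postnatal day 28 was hybridised to 4 one-colour Agilent arrays, 2 for the control and 2 for the knockout (KO). The control, Derlin-2_control, had the genotype Derlin-2flox/flox. The KO, Derlin-2_KO, was bred from Derl2flox/flox animals and a line whose Cre recombinase is driven by nestin regulatory sequence, so both groups carry floxed Derl2. The labels name no Cre transgene for the controls, and Cre and the deletion cannot be told apart. Nestin is expressed in neural precursors, so cells of other origin, such as microglia, blood vessels and blood, can keep Derl2. Nothing in the labels says that the samples of a group came from separate animals, and the p-values measure the spread between these samples only.

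Signals are given as log2 of the processed signal minus the 75th percentile of the array, so 0 is the level of that percentile and a difference of 1 is 2-fold. A difference is KO minus control, with the standard error (SE) from limma. Of the spots, 66.4% to 69.4% per array were well above background, with 0 saturated. The arrays shared 1 slide and 1 scan, each at its own position, so position and group cannot be told apart. Derl2 itself read 2.13 and 2.20 (control) and 0.81 and 0.70 (KO) on its brighter probe, 37.6% of control, and 30.2% of control on its other probe. Markers of the cerebellum were present. All 7 Purkinje and all 7 granule cell markers were measured, with summed signals of 596 and 603 (Purkinje) and 477 and 490 (granule) in the controls. In the KO they were 570 and 587, and 467 and 468, in units of the signal at the 75th percentile. Among the Purkinje cell markers Car8, named after its values were seen, read 3.99 and 3.13 (control) against 1.02 and 3.78 (KO), and 4.06 and 3.35 against 0.15 and 4.06 on its other probe. It was thus low on the array of KO replicate 1 alone. The sums were 117 and 120 against 110 and 105 for astrocytes and Bergmann glia, 381 and 360 against 311 and 347 for oligodendrocytes, and 77.8 and 82.6 against 75.3 and 75.3 for microglia. The microglia sum was led by Itgam, named after its values were seen, at 5.935 and 6.055 against 5.963 and 5.914. Its other probe was well above background on 2 arrays. All 7 microglia and all 7 oligodendrocyte markers had differences below 0, with medians of −0.225 and −0.277 (all genes −0.064, 63.9% below 0). So did 6 of 7 astrocyte and Bergmann glia, 6 of 7 granule and 5 of 7 Purkinje cell markers. Choroid plexus markers summed to 6.71 on the array of control replicate 1, 140 on that of control replicate 2 and 7.13 and 7.13 on the KO arrays. Red blood cell markers, of which 4 of 5 were measured and Hbb-bs had no probe, summed to 236 and 346 in the controls, against 234 and 231 in the KO. The part of these cell types in the results below was not tested.

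ERAD removes proteins that fail to fold in the ER. Lectins and mannosidases read the trimmed sugars of a misfolded glycoprotein and hand it to a membrane ubiquitin ligase, of which HRD1 (Syvn1) with its partner SEL1L is the best known. The ligase, with an E2 enzyme, attaches ubiquitin on the cytosolic side, the ATPase p97 (Vcp) pulls the protein out of the membrane, and the sugar is removed before the proteasome takes over. Derlins sit in the membrane beside the ligase. Several ERAD genes are induced by the unfolded protein response, through ATF6 and XBP1, which bind short elements near the start of their target genes.

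Those elements were searched for in the promoters, because the members with the highest differences between KO and control include genes of this class. The search followed from those differences, so the differences of the matched members are no separate support. RefSeq promoter windows of GRCm38.p6, 250 bases before to 50 after the start, were on hand for 33 of the 41 genes (38 windows) and were read on both strands. The ER stress response element (CCAAT followed after 9 bases of any kind by CCACG) lay in 1 member promoter, that of Syvn1, and in 39 of 32851 windows in all (0.119%). Its second form (ATTGG followed after 1 base by CCACG) lay in that of Herpud1 and in 12 windows in all (0.0365%). The core of the unfolded protein response element (TGACGTGG) lay in those of Ube2j1 and Vcp and in 222 windows in all (0.676%). The short core CCACG, which is also the end of both stress elements and overlaps TGACGTGG read on the other strand, was found in 20 of the 38 member windows (52.6%) and in 32.8% of all windows. The 4 promoters with one of the longer elements are printed 5′ to 3′ on the strand of the gene, with the matched bases in capitals. They lie at chr8:94386179-94386478 (Herpud1, plus strand), chr19:6046326-6046625 (Syvn1, plus strand), chr4:33031130-33031429 (Ube2j1, plus strand) and chr4:43000458-43000757 (Vcp, minus strand).
Herpud1: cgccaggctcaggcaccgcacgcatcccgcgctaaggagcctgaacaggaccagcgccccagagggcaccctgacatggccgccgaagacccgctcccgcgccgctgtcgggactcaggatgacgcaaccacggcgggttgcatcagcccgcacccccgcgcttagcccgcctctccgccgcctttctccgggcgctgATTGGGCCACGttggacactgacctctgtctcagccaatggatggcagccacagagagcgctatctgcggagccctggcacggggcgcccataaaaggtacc
Syvn1: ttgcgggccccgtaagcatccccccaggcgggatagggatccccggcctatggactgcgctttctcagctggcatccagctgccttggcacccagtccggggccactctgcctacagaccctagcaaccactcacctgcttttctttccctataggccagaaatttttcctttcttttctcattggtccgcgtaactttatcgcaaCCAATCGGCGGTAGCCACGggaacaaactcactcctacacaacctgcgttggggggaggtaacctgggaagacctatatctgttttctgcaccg
Ube2j1: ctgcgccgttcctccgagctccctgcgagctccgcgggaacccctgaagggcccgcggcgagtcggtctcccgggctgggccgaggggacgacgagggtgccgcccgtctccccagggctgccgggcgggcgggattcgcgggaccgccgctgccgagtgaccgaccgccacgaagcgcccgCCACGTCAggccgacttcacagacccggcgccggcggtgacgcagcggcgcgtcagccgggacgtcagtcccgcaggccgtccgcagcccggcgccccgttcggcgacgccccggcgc
Vcp: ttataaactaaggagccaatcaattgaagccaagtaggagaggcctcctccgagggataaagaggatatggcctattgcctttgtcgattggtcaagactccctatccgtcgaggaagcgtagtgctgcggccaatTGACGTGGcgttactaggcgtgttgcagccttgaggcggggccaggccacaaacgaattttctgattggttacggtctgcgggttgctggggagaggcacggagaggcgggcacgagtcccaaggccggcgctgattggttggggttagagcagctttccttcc

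Counted from the start of the gene, the match began at −52 in Herpud1, −44 in Syvn1, −68 in Ube2j1 and −114 in Vcp. In Ube2j1 it reads on the opposite strand. Of these 4 genes, Herpud1, Ube2j1 and Syvn1 had differences of 0.51, 0.33 and 0.20, and Vcp had −0.09. Among all tested genes with the first element in a promoter, 16 of 20 had a difference above 0, with a median of 0.24, and the KO arrays lay above both control arrays for 12 of them and below both for 3. The share above 0 over all genes was 36.1%, and the shares without overlap were 13.8% higher and 32.2% lower. For the 8 tested genes with the second form, 5 lay above 0, with 3 higher and 3 lower without overlap and a median of 0.10. For the 130 tested genes with TGACGTGG the median was −0.07, against −0.06 over all 16524 genes. These genes were not tested as a set, and a match of letters is not a binding site.

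The comparison of KO with control asked how the rest of the degradation machinery was expressed where Derlin-2 was deleted. The median difference of the 41 members was −0.06, the same as that of all genes tested, and 28 of 41 members (68.3%) lay below 0 against 63.9% of all genes. The members' differences ran from −0.29 (Os9) to 0.51 (Herpud1), and 0 of them reached 2-fold, against 1.39% of all genes. In a bulk tissue, fewer cells of a type and less RNA per cell cannot be told apart.

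By limma with Benjamini-Hochberg adjustment over all 37516 probes, 0 of the 41 members passed an adjusted p of 0.05, and 0 of all probes did (0%). At an unadjusted p under 0.05 there was 1 member, Os9, which was lower, against 5.65% of all genes lower, 3.16% higher and 8.81% in either direction. The KO arrays lay above both control arrays for 7 members (17.1%), against 13.8% of all genes, and below both for 16 members (39.0%), against 32.2% of all genes. Without overlap in either direction there were 23 of 41 members, against 46% of all genes (7599 of 16524). The members' shares lay somewhat above those of all genes, and the excess was not tested. Of the 63 member probes, 2 higher and 2 lower had an unadjusted p under 0.05, against 8.85% and 5.19% of all probes. The groups did not overlap for 13 higher and 24 lower member probes, against 22.4% and 26.9% of all probes and 49.4% in either direction. All probes include those of no named gene. Of the 24272 kept probes of named genes, 856 were higher and 1297 lower at an unadjusted p under 0.05. Without overlap, 3650 of the probes of named genes were higher and 7409 lower. With the arrays scaled to 7 spike-in probes instead, 12 members were higher and 8 lower without overlap, against 25% and 16.9% of all genes, and the medians of the members and of all genes were both 0.02. An exact two-sided permutation test of 2 against 2 arrays cannot give less than 33.3%, so none is quoted. Without control replicate 2, whose choroid plexus markers stood apart, the members' median was −0.046, and 8 members lay higher and 20 lower without overlap, against 24.8% and 44.7% of all genes in the same comparison of 2 KO arrays with 1 control array. There 0 members and 91 of all probes passed the adjusted limma threshold. The differences were then 0.46 for Herpud1, 0.46 for Edem1, 0.49 for Ube2j1, 0.29 for Sel1l, 0.20 for Syvn1, −0.21 for Rnf139 and −0.30 for Os9. For 40 of the 41 members, all but Herpud1, the 95% interval of the difference lay inside 2-fold in both directions.

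**Figure D1:**
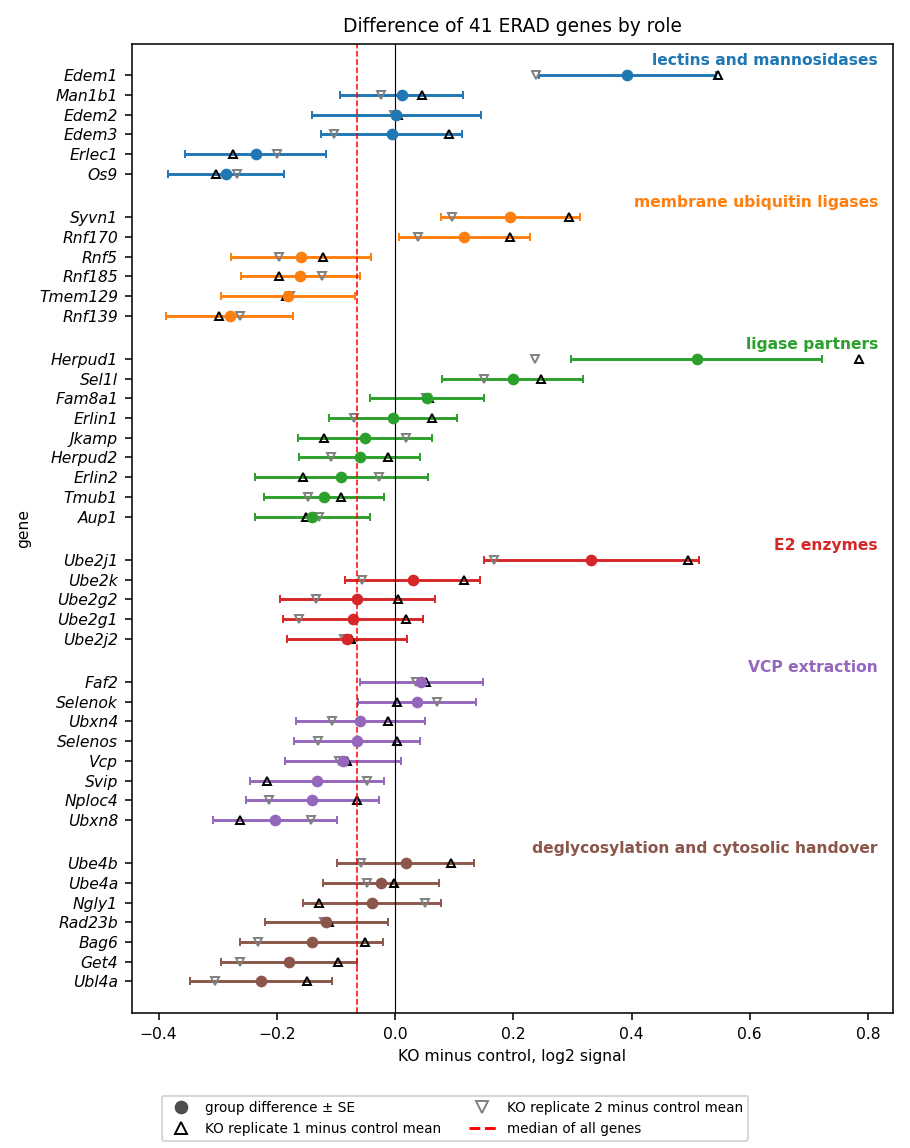
Difference between KO and control (log2 signal, x axis) for each of the 41 ERAD genes (y axis), grouped by role. Filled circles are the group difference with its SE (2 arrays a group), triangles each KO array minus the control mean, and the dashed line the median of all genes at −0.06; Herpud1 reaches 0.51 and Os9 −0.29, while most members lie near the dashed line.

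Lectins and mannosidases come first in the pathway. Their 6 members had a median difference of −0.002. The largest differences among them were those of Edem1, above 0, and of the lectins Os9 and Erlec1, below 0. Edem1, a mannosidase-like protein that marks glycoproteins for disposal, read −0.60 and −0.48 (control) and 0.01 and −0.30 (KO). Both KO values were above both control values, and replicate 1 was the higher. The means were −0.54 ± 0.090 and −0.15 ± 0.218 (SD, n = 2 each), a difference of 0.39 (SE 0.15, limma adjusted p 0.36). A dimmer Edem1 probe differed by 0.31 (SE 0.18), and there the groups overlapped, at −3.10 for control replicate 2 and −3.12 for KO replicate 2.

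Os9 and Erlec1 encode the related lectins that bind trimmed sugars and deliver clients to SEL1L. Os9 read 4.32 and 4.30 (control) and 4.01 and 4.04 (KO), with 4.31 ± 0.017 against 4.03 ± 0.025 (SD, n = 2 each). The replicates nearly coincided and the groups were apart, with a difference of −0.29 (SE 0.098, limma adjusted p 0.336; unadjusted 0.0387) and 82.0% of the control signal. Erlec1 read 1.28 and 1.09 (control) and 0.91 and 0.98 (KO), a difference of −0.24 (SE 0.12, limma adjusted p 0.443). Its dimmer probe differed by −0.42 (SE 0.14), with values of 0.29 and −0.01 against −0.33 and −0.23. On that probe the spot of control replicate 1 lay on a patch of raised local background, and it was the highest of the 4.

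The groups overlapped for the other mannosidases. Man1b1, an ER mannosidase, read 3.13 and 3.04 (control) and 3.13 and 3.06 (KO), with a 95% interval of the difference from −0.27 to 0.29. Edem2 and Edem3 had differences of 0.002 (SE 0.143) and −0.006 (SE 0.120), and −0.011 and −0.140 on their dimmer probes.

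Among the 6 membrane ubiquitin ligases the groups did not overlap on the brightest probe of any member, with 2 higher and 4 lower in the KO, against 13.8% and 32.2% of all genes (46% in either direction). Their median was −0.16. Syvn1, the ligase HRD1, gave signals of 4.589 and 4.603 (control) and 4.890 and 4.693 (KO). The controls nearly coincided and both KO values were above them, the more so for replicate 1. The difference was 0.20 (SE 0.12, limma adjusted p 0.5). Rnf170, a ligase that acts on inositol trisphosphate receptors, was the other high member, by 0.12 (SE 0.11) on its brighter probe and 0.17 (SE 0.10) on the other.

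Rnf139 (TRC8), a ligase tied to sterol-regulated degradation, was the lowest ligase. It read 0.84 and 0.97 (control) and 0.61 and 0.64 (KO), so the KO values were close together below the controls. The means were 0.90 ± 0.093 and 0.62 ± 0.025 (SD, n = 2 each), a difference of −0.28 (SE 0.11, limma adjusted p 0.364). Tmem129, a ligase that works with Derlin-1, read 2.21 and 2.03 against 1.94 and 1.94, a difference of −0.18 (SE 0.11). Rnf185 read 2.81 and 2.78 against 2.60 and 2.67, a difference of −0.16 (SE 0.10), and its relative Rnf5 differed by −0.16 (SE 0.12).

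The probes of Rnf185 did not share a direction. A dimmer probe differed by −0.08 (SE 0.12) with overlapping groups, and a probe for another transcript of the gene by 0.18 (SE 0.11); the latter was well above background on 3 of the 4 arrays, the only member probe short of 4.

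The partners of the ligases held the highest member. Herpud1 encodes HERP, a membrane protein that organises the HRD1 complex. It read 2.89 and 2.79 (control) and 3.63 and 3.08 (KO). Both KO values were above both controls, but KO replicate 1 was 0.78 above the control mean and KO replicate 2 only 0.24. The means were 2.84 ± 0.070 and 3.35 ± 0.388 (SD, n = 2 each), a difference of 0.51 (SE 0.21, limma adjusted p 0.387), or 142.4% of control. The other Herpud1 probe read 0.47 and 0.28 against 1.48 and 0.78, a difference of 0.75 (SE 0.26; unadjusted p 0.0424 in limma, adjusted 0.343). The brighter probe had a spot on the background patch of control replicate 1. The probe without such a spot gave the larger difference.

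Sel1l, the adaptor that holds lectins and HRD1 together, read 4.48 and 4.66 (control) and 4.81 and 4.72 (KO). The nearest KO and control arrays were closer together than the controls were to each other. The difference was 0.20 (SE 0.12, limma adjusted p 0.497). Its dimmer probe read −2.03 and −2.06 against −1.62 and −1.87, a difference of 0.30 (SE 0.13).

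The remaining partners lay near the median of all genes. Aup1, which recruits the E2 UBE2G2 to lipid droplets and the ER, read 0.98 and 1.0 (control) and 0.84 and 0.86 (KO), a difference of −0.14 (SE 0.097). Tmub1 read 3.16 and 3.09 against 3.04 and 2.98, a difference of −0.12 (SE 0.10). Fam8a1, an HRD1 cofactor, differed by 0.05, and Herpud2, Jkamp, Erlin1 and Erlin2 by −0.09 to −0.003 with overlapping groups. ERLIN1 and ERLIN2 form the scaffold on which RNF170 acts.

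Of the 5 E2 enzymes, which carry ubiquitin to the ligases, Ube2j1 had the largest difference. Ube2j1, the membrane-anchored E2 of the HRD1 complex, read 1.78 and 2.09 (control) and 2.43 and 2.10 (KO). The groups did not overlap, but KO replicate 2 and control replicate 2 were almost level. The difference was 0.33 (SE 0.18, limma adjusted p 0.471). The dimmer Ube2j1 probe was tighter, with −1.10 and −1.09 against −0.66 and −0.85 and a difference of 0.34 (SE 0.12; unadjusted p 0.0389 in limma, adjusted 0.336).

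Its relative Ube2j2 read 4.86 and 4.94 (control) and 4.83 and 4.81 (KO), a difference of −0.08 (SE 0.10), and −0.13 on its other probe. The soluble E2 enzymes Ube2g1, with 2.97 and 3.06 against 3.04 and 2.86, and Ube2g2, with 1.56 and 1.34 against 1.46 and 1.32, overlapped between groups. Their differences were −0.07 (SE 0.12) and −0.06 (SE 0.13). Ube2k differed by 0.03 on its brightest probe and by −0.10 and −0.23 on its other probes. Spike-in scaling moves every gene by the same amount, and the median of all genes from −0.064 to 0.023. The differences of Ube2j2, Ube2g1 and Ube2g2, which are smaller than that shift, became 0.005, 0.015 and 0.022.

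**Figure D2:**
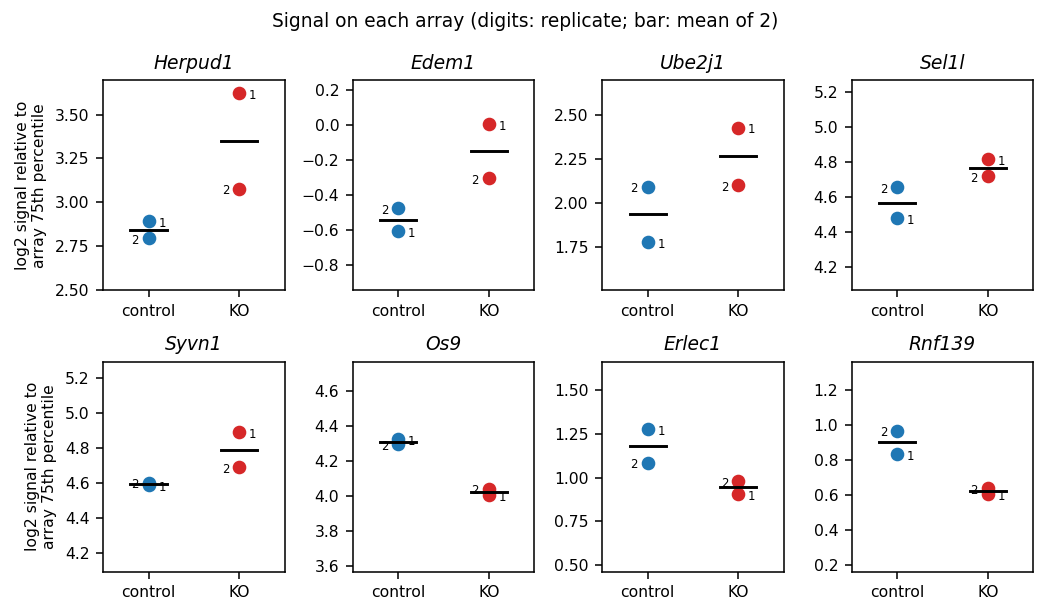
Log2 signal above the 75th percentile of its array (y axis, each panel spanning the same range) on the control and KO arrays for 8 members, with the replicate number beside each point and a bar at the mean of 2. For Herpud1, Edem1, Ube2j1, Sel1l and Syvn1 KO replicate 1 is the highest array, while for Os9, Erlec1 and Rnf139 both KO arrays lie below both controls.

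The step that pulls clients out of the membrane (VCP extraction, the p97 step) held 8 members with a median of −0.08. The KO was above both controls for 0 of them and below both for 4, against 13.8% and 32.2% of all genes. Vcp, the p97 ATPase, read 5.10 and 5.05 (control) and 4.99 and 4.98 (KO). The KO values lay just below the controls, with a difference of −0.09 (SE 0.098) and a 95% interval from −0.35 to 0.18; the other Vcp probe differed by −0.15 (SE 0.15). Nploc4, the p97 cofactor that binds ubiquitin chains, read 1.61 and 1.53 against 1.505 and 1.356, a difference of −0.14 (SE 0.11).

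Among the proteins that dock p97 to the ER, Ubxn8 lay lowest. It read 1.60 and 1.59 (control) and 1.33 and 1.45 (KO), a difference of −0.20 (SE 0.10, limma adjusted p 0.451). Svip, a small inhibitor of ERAD that binds p97, read 2.34 and 2.28 against 2.10 and 2.27, a difference of −0.13 (SE 0.11). Selenos and Selenok, selenoproteins that join p97 to the Derlins, differed by −0.06 and 0.04, and Faf2 and Ubxn4 by 0.04 and −0.06; the groups overlapped for these 4 genes. The dimmer probes of Selenok and Faf2 lay the other way, at −0.12 and −0.08.

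Downstream (deglycosylation and cytosolic handover), 7 genes strip the sugar, hold the extracted protein soluble or pass it to the proteasome. Their median was −0.12, with 0 higher and 3 lower without overlap, against 13.8% and 32.2% of all genes. Ngly1, the cytosolic glycanase, had a difference of −0.04 (SE 0.12) with overlapping groups. Rad23b, which shuttles ubiquitinated proteins and binds the glycanase, read 3.05 and 3.16 against 2.995 and 2.986, a difference of −0.12 (SE 0.10), and −0.20 on a dimmer probe.

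Bag6, Ubl4a and Get4 encode the BAG6 complex, a cytosolic holdase for membrane proteins, and none of them passed a threshold. Ubl4a read 0.85 and 0.70 (control) and 0.63 and 0.47 (KO), a difference of −0.23 (SE 0.12, limma adjusted p 0.458). Get4 read 2.84 and 2.76 against 2.70 and 2.54, a difference of −0.18 (SE 0.12). Bag6 read 4.78 and 4.90 against 4.79 and 4.61, a difference of −0.14 (SE 0.12) with overlapping groups. Its dimmer probes differed by 0.01, with overlap, and by −0.165 (SE 0.101), with both KO arrays below both controls. The ubiquitin chain elongation factors Ube4a and Ube4b differed by −0.02 and 0.02, and the other probes of Ube4b by −0.15 and 0.23.

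Side by side, the role medians ran from −0.16 (ligases) to −0.002 (lectins and mannosidases), and no role had a median above 0. Members are not replicates, so the roles were not tested against each other. In pairs of 1 KO with 1 control array the ligase median was below 0 in all 4, from −0.21 to −0.06, as were those of the p97 step, from −0.11 to −0.04, and of the downstream step, from −0.18 to −0.05. The median of the lectins and mannosidases ran from −0.15 to 0.11, that of the E2 enzymes from −0.08 to 0.12 and that of the ligase partners from −0.09 to 0.04. The median of all genes ran from −0.064 to −0.055 in these pairs. With spike-in scaling 4 of the 6 role medians lay above 0, at 0.085 for the lectins and mannosidases, 0.036 for the ligase partners, 0.022 for the E2 enzymes and 0.010 for the p97 step. Those of the ligases, −0.073, and of the downstream step, −0.030, lay below 0.

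**Figure D3:**
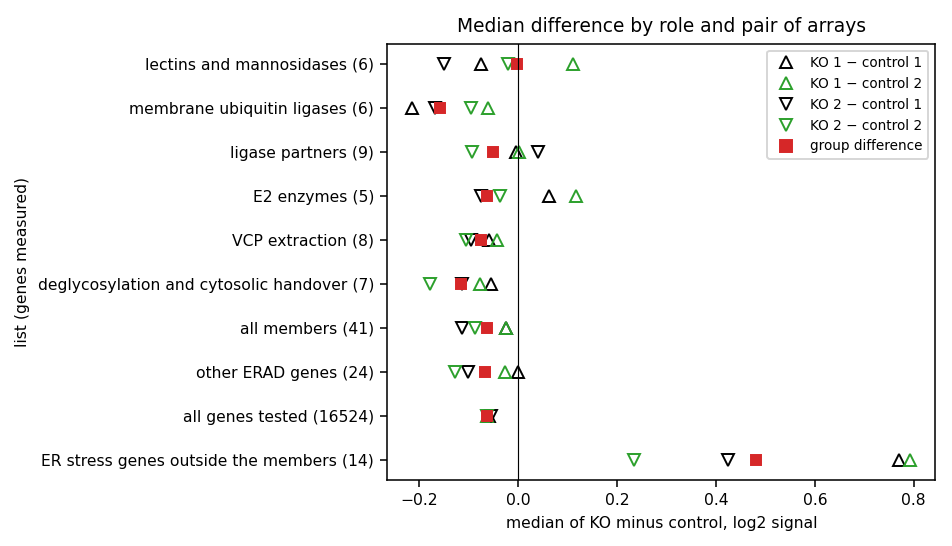
Median of KO minus control (log2 signal, x axis) for each role and comparison list (y axis, genes measured in brackets). Roles and lists were chosen with earlier results of these data known. Open triangles are the 4 differences of single KO and control arrays and squares the group difference; the 6 roles stay between −0.21 and 0.12, near all genes at −0.06, while the ER stress genes outside the members reach 0.23 to 0.79.

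The KO samples differed from each other. KO replicate 1 was above KO replicate 2 for 29 of 41 members (70.7%), against 50.4% of all genes. That held for 12 of the 13 members with a difference above 0 (92.3%) and for 17 of the 28 below 0 (60.7%), against 50.1% and 50.5% of all genes. Against the control mean, KO replicate 1 and KO replicate 2 gave 0.78 and 0.24 for Herpud1, 0.55 and 0.24 for Edem1, 0.50 and 0.17 for Ube2j1, 0.29 and 0.10 for Syvn1 and 0.25 and 0.15 for Sel1l. Fam8a1 was alike in both, at 0.06 and 0.05. Among members below 0 they gave −0.30 and −0.27 for Os9 and −0.30 and −0.26 for Rnf139, but −0.05 and −0.23 for Bag6, −0.10 and −0.26 for Get4 and −0.22 and −0.05 for Svip.

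The 14 ER stress genes outside the members showed the same order, with KO replicate 1 above KO replicate 2 for all 14. Their median difference was 0.48, 12 of 14 lay higher without overlap, against 13.8% of all genes, and 6 were higher with an unadjusted p under 0.05, against 3.16%. This list was chosen with earlier results of these data known, so its counts describe it and are no independent test. Xbp1, the transcription factor, differed by 0.70 (SE 0.11) and Hspa5, the chaperone BiP, by 0.82 (SE 0.16), both with a limma adjusted p of 0.273. Of the 9 members known as stress-induced, 4 (Sel1l, Syvn1, Herpud1 and Edem1) lay higher without overlap and 2 (Os9 and Erlec1) lower. The shares of all genes were 13.8% and 32.2%, and the median of these 9 members was 0.04.

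For 24 further ERAD genes the median was −0.07, with a range from −0.26 to 0.60. The highest value belongs to Ermp1, which read 0.46 and 1.93 (control) against 1.82 and 1.77 (KO), SE 0.50, with the spot of control replicate 1 on the background patch. Its other probes differed by −0.30 and 0.02, and the next highest gene was Txndc11, at 0.25. Of the 24 genes, 2 lay higher and 6 lower without overlap, against 13.8% and 32.2% of all genes. On the brightest probe 0 had an unadjusted or adjusted p under 0.05, against 8.81% of all genes unadjusted. Of their 39 kept probes, 2 were higher with an unadjusted p under 0.05, against 8.85% of all probes. Among the 24272 kept probes of named genes, 856 were higher at this threshold. The 2 ERAD probes were a dimmer probe of Rnf145 (0.55, SE 0.097, unadjusted p 0.00368 in limma) and one of Txndc11 (0.62, SE 0.11, unadjusted p 0.00418), adjusted p 0.273 for both. Ermp1, Rnf145 and Txndc11 were named after their values were seen. On the brightest probes the smallest p belonged to the deubiquitinase Usp13, with a difference of −0.26 (SE 0.13), and the ligase Trim13, with −0.23 (SE 0.13). Among the Derlins, Derl1 differed by −0.08 (SE 0.14) and Derl3 by 1.48 (SE 0.21), with −2.085 and −1.602 in the controls against −0.23 and −0.49 in the KO.

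Probes of the same gene can be set side by side. Of the 18 members with more than 1 kept probe, 11 had all probes on the same side of 0. These included every probe of Herpud1, Edem1, Ube2j1, Sel1l and Rnf170 above 0 and of Erlec1, Rad23b, Vcp and Ube2j2 below it. The same share over all genes was not computed, and 63.9% of all genes lay below 0. The count of 11 therefore does not measure how well probes of a gene match. Probes of 1 gene share the RNA of the sample and are not replicates.

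**Figure D4:**
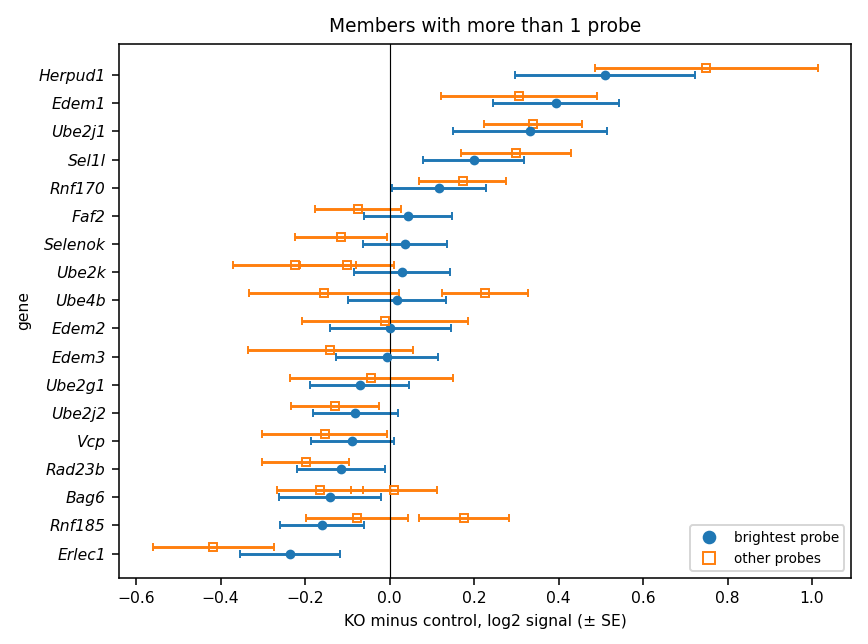
Difference between KO and control (log2 signal, x axis) with its SE for every kept probe of the 18 members with more than 1 probe (y axis). Circles are the brightest probe of a gene and squares its other probes; those of Herpud1 (0.51 and 0.75), Edem1, Ube2j1, Sel1l and Rnf170 lie above 0, while those of Rnf185, Ube2k and Ube4b fall on both sides.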

How the data were processed

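Cy3-labelled cRNA from 150 ng of total RNA per cerebellum sample was read on 4 one-colour arrays, per the labels. Per the file headers, Agilent Feature Extraction 12.1.1.1 produced the scanner files, while the submitters' processing notes list 10.7.1.1. The deposited processed signal is a linear intensity from which the software had removed background and spatial trends, with no scaling between arrays, per the file headers. The authors' deposited series table holds log2 values whose scaling and centring are not stated in the sources used here. Differences between its columns matched those of the scanner values scaled by the 75th percentile, with 100.0% of 28926 bright probes within 0.01; the probe-wise centre stays unknown, and the column medians were 0.007, −0.19, −0.16 and −0.22.

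From the scanner files, the log2 intensities of a probe's spots without outlier flags were averaged (65 to 176 spots left out per array), and the 75th percentile of the array was subtracted. Probes well above background on both arrays of a group were kept, 37516 in all. Of 35886 probes with a RefSeq accession, 91.9% were named through a table of GRCm38.p6. KO was compared with control in limma 3.58.1 (R 4.3.3; lmFit, eBayes, no covariates, Benjamini-Hochberg). The brightest kept probe reports a gene. The fit was tested on simulated data drawn from its own variance model, with planted differences larger than that of any member. That run checks the code and has no bearing on the members. Members, roles and lists were chosen with earlier results of these data known. Values on every array are given for the 4 members of each role with the smallest unadjusted p, for any member with an unadjusted p under 0.05 and for Sel1l, Syvn1, Vcp and Herpud1; Derlin genes and the leading 2 genes of a comparison list could be named too. Promoters were read from RefSeq windows.

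Alternatives were quantile, median and spike-in scaling, normexp (offset 50) on the median spot signal, the authors' log2 values, other filters, flagged spots kept, patch spots left out (local background over 1.5 times the array median, with spots within 2 rows or columns), a variance trend with robust estimation, a block for the replicate number, leaving out each array and the mean of a gene's probes.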

Additional observations from a re-analysis of the deposited data

How the results depend on the processing

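Of 360 values of 24 named members under the alternatives, 351 kept their direction and 0 passed the adjusted threshold; 20 members kept their direction throughout. The 9 that turned were Ube2j2 (0.005), Ube2g1 (0.015) and Ube2g2 (0.022) under spike-in scaling, which moves every gene alike by more than these differences, Man1b1 (−0.001) under normexp, and, with 1 array left out, Man1b1 (range −0.036 to 0.057), Ube2g1 (−0.162 to 0.019) and Ube2g2 (−0.176 to 0.048). Herpud1 went from 0.51 to 0.75 with patch spots left out, when its other probe reports the gene, to 0.24 without KO replicate 1 and to 0.78 without KO replicate 2. The cause was not tested for the other results that turned or moved. Edem1 went from 0.39 to 0.24 without KO replicate 1. Ube2j1 went from 0.33 to 0.17 without control replicate 1 or without KO replicate 1, and Syvn1 from 0.20 to 0.10 without KO replicate 1. In all, 17 of the 24 moved by over 1.5 times with some array left out, among them Sel1l (0.11) and Erlec1 (−0.14) and Tmem129 (−0.09) without control replicate 1, Rad23b (−0.06) without control replicate 2, Svip (−0.05) without KO replicate 1, and Get4 (−0.10), Nploc4 (−0.07), Bag6 (−0.05) and Ubl4a (−0.15) without KO replicate 2. Os9, Rnf139, Rnf185, Aup1, Tmub1, Ubxn8 and Vcp did not.

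No member passed the adjusted limma threshold under any alternative. Over all probes the count of 0 became 1 under quantile, median and spike-in scaling and with patch spots left out, 2 under normexp, 4 under the variance trend, and 0 to 91 with an array left out, the 91 without control replicate 2. Members at an unadjusted p under 0.05, 1 as reported, numbered 2 under quantile and spike-in scaling and the filter on all 4 arrays, 3 without patch spots, 4 under normexp and the variance trend, 0 without the filter on dim probes and 0 to 2 with an array left out. The 16 members lower without overlap became 10 under quantile and 8 under spike-in scaling, and the 7 higher became 12 under spike-in scaling. With an array left out, where groups of 1 and 2 arrays overlap less often, they numbered 19 to 27 lower, against 44.7% to 49.4% of all genes, and 8 to 11 higher, against 22.6% to 27.7%. The most lower were without KO replicate 1 (65.9% of members against 49.2% of genes) and the most higher without KO replicate 2 (26.8% against 27.5%).

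The members' median of −0.06 became −0.012 under quantile and 0.023 under spike-in scaling, where all genes moved to −0.027 and 0.023. Role medians moved past the spread of the pairs under quantile scaling for ligase partners (0.018) and the p97 step (−0.019), under spike-in scaling for ligases (−0.073), ligase partners (0.036), the p97 step (0.010) and the downstream step (−0.030), and with all probes averaged for ligases (−0.090). With an array left out the medians ran from −0.094 to −0.012 for the members, from −0.100 to 0.046 for lectins and mannosidases, from −0.195 to −0.079 for ligases, from −0.047 to 0.022 for ligase partners, from −0.087 to 0.048 for E2 enzymes, from −0.100 to −0.039 for the p97 step and from −0.136 to −0.059 for the downstream step.

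The replicate numbers share a label only. Same-numbered deviations correlated at 0.124 over probes, with 2 pairs. With the replicate block the members' median was −0.064, 0 members passed the adjusted threshold and 1 had an unadjusted p under 0.05, so the block changed no call. With an array left out, the lone array of a group is assumed to vary like the other group. The number of arrays limits the precision, and every kept member probe but 1 of Rnf185 was well above background on all 4 arrays.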
